A study of Mus musculus with 6 samples.

Results

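The sterol regulatory element-binding proteins (SREBPs), the endoplasmic reticulum proteins that hold or release them, a sterol carrier and a ubiquitin ligase of lipoprotein receptors were followed in C2C12, a line of mouse myoblasts grown from 1 clone, which the labels call myocytes. The genes were taken by symbol from the deposited table: Srebf1, Srebf2, Scap, Insig1, Insig2, Stard4 and Mylip, which are 7 of its 21899 genes. All 7 had enough counts to be tested. Of LDL uptake the 7 genes hold only Mylip, a regulator; the gene of the receptor itself was not analysed here. The study sequenced mRNA from 3 libraries of wild type C2C12 cells treated for 24 hours with 5-fluorouracil (5-FU; 5 µg per L) and from 3 libraries of wild type C2C12 cells that received phosphate-buffered saline (PBS). The drug 5-FU, an analogue of uracil, inhibits the synthesis of thymidylate and is incorporated into nucleic acids. The labels give no time for the PBS cells and do not tell separate cultures from repeat libraries, so every p-value refers to the spread among these 6 libraries, which may be technical. For 5-FU replicates 2 and 3 the labelled line name has a different last digit, and the titles, which name C2C12 for all 6, were followed.

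SREBPs are made as precursors in the membrane of the endoplasmic reticulum. When sterols are scarce, SCAP escorts the precursor to the Golgi, where proteases release the part that enters the nucleus and switches on genes of cholesterol and fatty acid synthesis. When sterols are plentiful, INSIG1 or INSIG2 binds SCAP and keeps the complex in the endoplasmic reticulum. Insig1 is itself a target of SREBPs, which closes a feedback loop, whereas Insig2 depends on them less. MYLIP, also called IDOL, marks the LDL receptor and its relatives for degradation and is induced by the liver X receptors. Cleavage of SREBPs happens at the protein level, which mRNA libraries do not measure.

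Insig1 was lower after 5-FU and was the only one of the 7 genes called by edgeR's quasi-likelihood test (adjusted p under 0.05 over all genes tested). It fell by 15.9%. Scap had a difference of 9.27% and Stard4 one of -11.8%, and neither was called. The estimates for Srebf1, Srebf2, Insig2 and Mylip lay between -2.05% and 0.667%. In these bulk libraries, fewer cells that use a gene and less of its RNA per cell cannot be told apart. The call of 1 of 7 genes stands beside 7.14% of all 12135 genes tested, with 3.87% higher and 3.26% lower. In 2 of 7 genes, Insig1 and Scap, the 3 libraries of one group all lay above the 3 of the other, beside 29.3% of all genes tested. The median log2 fold change of the 7 genes was -0.0055, against 0.0012 over all genes tested. These shares are near the background, so nothing is read from the count of calls; the values of the single genes follow.

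The 6 libraries held between 19583312 and 23016735 estimated counts. All muscle markers examined, 12 of 12 including Myod1, Myog and Des, had a mean of at least 1 TPM. Their summed level lay between 4089 and 4231 TPM in PBS and between 4501 and 5295 TPM in 5-FU. That difference was not tested, and on the TPM scale the median gene was also higher in 5-FU, as given below. The largest part of the sum was Des, with a mean of 1806 TPM in PBS and 2069 TPM in 5-FU. The means of Cav3, Myf6, Megf10 and Pax7 were not higher in 5-FU, and those of the other muscle markers were. Endothelial markers summed to at most 0.721 TPM in any library and hepatocyte markers to at most 0.092 TPM, with 5 of 6 of the latter at 0, Alb among them. Leukocyte markers summed to 17.7 to 20.4 TPM in PBS and 18.2 to 26.9 TPM in 5-FU, nearly all from Cd14 and Cd68, with Ptprc at a mean of 0.0887 TPM in PBS and 0 in 5-FU. Epithelial markers summed to 51.6 to 58.2 and 46.7 to 61.2 TPM, nearly all from Krt14 and Krt19, with Epcam at 0. Adipocyte markers summed to 18.5 to 19.4 and 18.8 to 24.3 TPM, mostly from Pparg, with Lep at 0. The part of these levels in the results was not tested. edgeR called 866 genes, 54.3% of them higher in 5-FU, against 64.8% of 528 with limma on log2(TPM + 1). The median log2 fold change over the genes tested was 0.0012 with edgeR and 0.037 in that limma fit. Dropping PBS replicate 1, 2 or 3 left 510, 259 and 476 calls, and dropping 5-FU replicate 1, 2 or 3 left 664, 509 and 497. The authors' deposited table of 186 genes, whose smallest absolute log2 ratio is 0.585, lists 0 of the 7 genes.

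The sequences before the start sites of Insig1, Scap and Srebf2 are shown because Insig1 carried the only call, Scap was the other member whose groups did not overlap and Srebf2 was the most abundant member. They are the 250 bases before a RefSeq start site (GRCm38.p6, all on the + strand), at chr5:28071162-28071411 for Insig1, chr9:110333106-110333355 for the downstream start of Scap and chr15:82147019-82147268 for Srebf2. Capitals mark matches on either strand to the letters given below.
Insig1: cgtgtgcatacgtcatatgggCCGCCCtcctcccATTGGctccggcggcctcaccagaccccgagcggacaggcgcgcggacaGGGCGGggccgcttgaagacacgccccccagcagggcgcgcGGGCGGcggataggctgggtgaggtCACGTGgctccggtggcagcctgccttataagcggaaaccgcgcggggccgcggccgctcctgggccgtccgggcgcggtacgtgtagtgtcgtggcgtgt
Scap: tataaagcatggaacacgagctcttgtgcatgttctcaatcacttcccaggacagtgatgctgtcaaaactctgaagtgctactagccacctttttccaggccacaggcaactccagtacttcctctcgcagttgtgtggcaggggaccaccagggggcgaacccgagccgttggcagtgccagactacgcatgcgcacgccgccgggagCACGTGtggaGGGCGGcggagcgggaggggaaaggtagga
Srebf2: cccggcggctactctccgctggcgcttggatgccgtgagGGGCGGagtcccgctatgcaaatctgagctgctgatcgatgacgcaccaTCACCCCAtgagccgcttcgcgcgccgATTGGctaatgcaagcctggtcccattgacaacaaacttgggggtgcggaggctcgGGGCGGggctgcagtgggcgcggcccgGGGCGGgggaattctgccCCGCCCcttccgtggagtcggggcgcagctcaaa

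The motifs searched on both strands were the sterol regulatory element TCACNCCAC, to which SREBPs bind, the NF-Y box CCAAT and the GC box GGGCGG, whose factors act together with SREBPs, the E box CACGTG and the direct-repeat element of the liver X receptors. Of the 7 genes 6 matched the RefSeq promoter table, with 11 windows in all (3 each for Srebf1 and Insig2, 2 overlapping ones for Scap); Stard4 did not. None of the 11 windows held the full sterol element, which 1.05% of 32851 windows of all genes held. Its shortened form TCACNCCA, searched after the Srebf2 sequence had been seen and contained in the full form, was found once, in Srebf2 from 162 bases before the start, and in 3.67% of all windows. The Insig1 window held 3 GC boxes (32.7% of all windows held at least 1), an NF-Y box 216 bases before the start (33.8% of all windows) and an E box 101 bases before it (6.02% of all windows). Of 15 genes of sterol synthesis enzymes with windows, 1 held the full sterol element. A GC box was in 14, an NF-Y box in 14 and an E box in 3 of those genes. The Scap window shown held 1 GC box and 1 E box, and the Srebf2 window 4 GC boxes and 1 NF-Y box. No window of the 6 genes held the liver X receptor element, which 0.0152% of all windows held. A match describes letters and not a bound site, and a missing match says only that the letters are not in this window.

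The SREBP genes themselves did not pass the test. Srebf2, which encodes the SREBP tied mainly to cholesterol synthesis and uptake, had 594, 579 and 543 CPM in PBS replicates 1, 2 and 3 and 574, 579 and 567 CPM in 5-FU replicates 1, 2 and 3. The 5-FU libraries lay inside the PBS range. The log2 fold change was 0.0028 (SE 0.043, edgeR adjusted p = 0.979), with a 95% interval from -0.092 to 0.098, which is a fold of 0.938 to 1.07. Srebf1, which encodes the SREBP1a and SREBP1c forms from separate start sites, had 135, 128 and 129 CPM in PBS and 132, 131 and 127 CPM in 5-FU. The groups overlapped here too, with a log2 fold change of -0.0055 (SE 0.042, edgeR adjusted p = 0.955) and an interval from -0.099 to 0.088. The signs of both estimates turned under alternative settings, with values between -0.033 and 0.053 for Srebf2 and between -0.018 and 0.026 for Srebf1. The deposited table gives 1 value per gene, so the forms of Srebf1 could not be separated, and its exons overlap those of Rai1 on the opposite strand in GENCODE M21. Rai1 stood at 62.0 and 64.9 CPM in PBS and 5-FU (log2 fold change 0.067, edgeR adjusted p = 0.554); without strand, reads from the overlap cannot be told apart.

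Srebf2 also holds a microRNA gene, Mir33, inside its RefSeq gene span. The mature strand is shown because it is made from the same transcript as Srebf2; its seed, bases 2 to 8, is in capitals (RefSeq, GRCm38.p6, chr15:82198127-82198147, + strand).
mmu-miR-33-5p: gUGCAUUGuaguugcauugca
The libraries were made from fragmented mRNA, and the level of the mature microRNA was not analysed here.

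**Figure D1:**
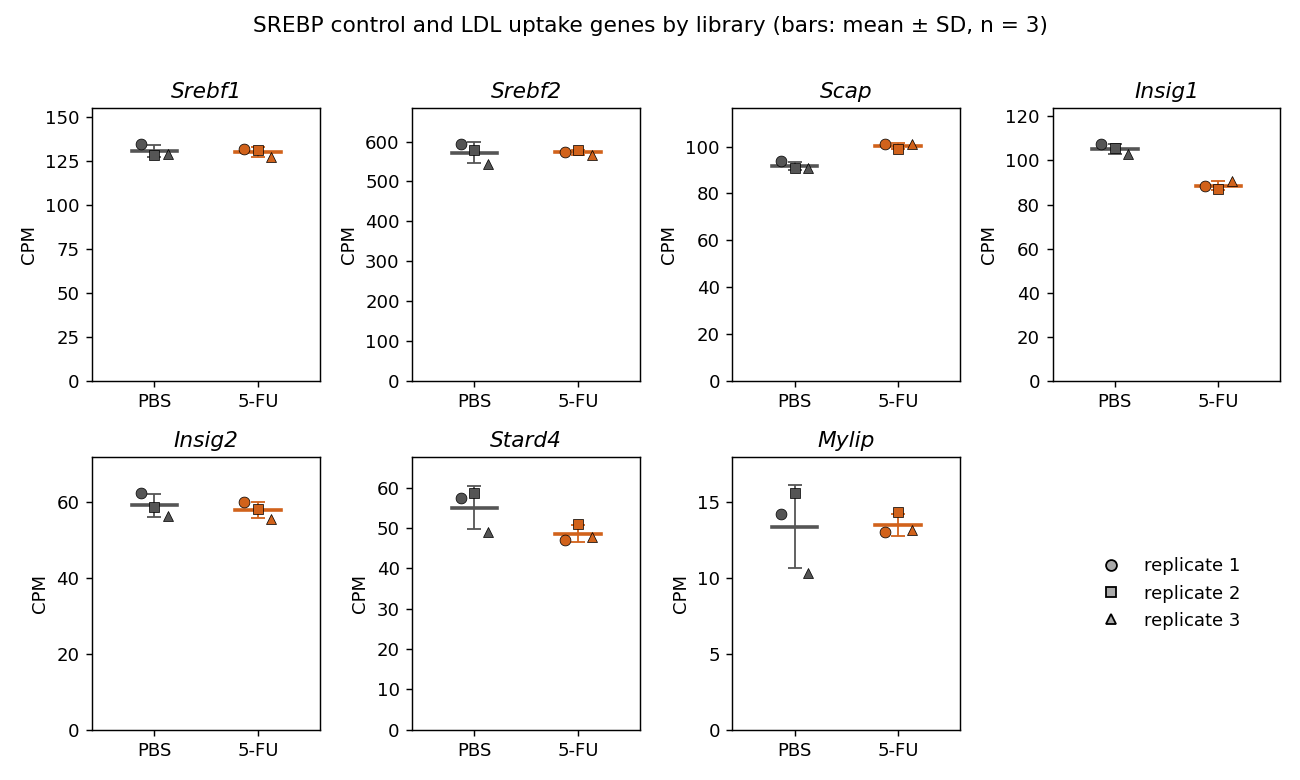
Normalised counts (CPM, vertical axis from 0) of the 7 genes in 3 PBS and 3 5-FU libraries; points are libraries, horizontal lines group means and error bars the SD (n = 3). The 5-FU libraries of Insig1 sit between 86.8 and 90.6 CPM, all under the PBS libraries, those of Scap sit between 98.8 and 101.1 CPM, all above the PBS libraries, and the groups of the other 5 genes overlap.

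Among the proteins that hold or move SREBPs, Insig1 changed and its relative Insig2 was not called. Insig1 (ENSMUSG00000045294) had 108, 106 and 103 CPM in PBS replicates 1, 2 and 3 and 88.4, 86.8 and 90.6 CPM in 5-FU replicates 1, 2 and 3. Every 5-FU library lay under every PBS library, by more than the spread within either group. The mean fell from 105 ± 2.4 to 88.6 ± 1.9 CPM (SD, n = 3; log2 fold change -0.25, SE 0.043, edgeR adjusted p = 0.00699), with a 95% interval from -0.34 to -0.16. In percent, the interval runs from -21.2% to -10.2%. The direction held in all 18 alternative settings, with log2 values from -0.27 to -0.21. They are not all separate. An adjusted p under 0.01 changes only the threshold, and limma on log2(TPM + 1) gives the same value with and without its filter. The call was lost in 1 of the 18 settings, limma on log2(TPM + 1) without a filter on low values (adjusted p = 0.0739, with 0.000757 to 0.0739 over the alternatives). The spread between libraries, 2.25% of the mean in PBS and 2.14% in 5-FU, was about the size that counting alone gives, 2.11% and 2.29%.

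Insig2 (ENSMUSG00000003721), the form whose expression depends less on SREBPs, had 62.4, 58.7 and 56.3 CPM in PBS and 60.0, 58.2 and 55.7 CPM in 5-FU. The groups overlapped over most of their range. The log2 fold change was -0.030 (SE 0.055, edgeR adjusted p = 0.779), with an interval from -0.15 to 0.091. The difference between both INSIG genes was tested through their ratio below.

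Scap (ENSMUSG00000032485), the escort that INSIG proteins retain, had 93.8, 90.9 and 90.8 CPM in PBS and 100.9, 98.8 and 101.1 CPM in 5-FU. All 5-FU libraries lay above all PBS libraries. The log2 fold change was 0.13 (SE 0.042, interval 0.037 to 0.22), and the unadjusted p of 0.0103 became an adjusted p of 0.0879 over all genes (edgeR). On the TPM scale, an abundance per transcript length, the difference was larger, 0.24 with limma on log2(TPM + 1) (adjusted p = 0.0492), and leaving out the filter on low values gave 0.0922. The adjusted p lay between 0.0492 and 0.248 over the 18 alternatives, and the sign was the same in all of them. In the setting that changes only the threshold, the sign was fixed. The number of CPM behind 1 TPM follows the length that the authors' quantification gave the gene in each library. It also holds a scaling shared by the whole library. For Scap it was 1.94, 1.95 and 2.10 in PBS and 1.82, 1.76 and 1.94 in 5-FU. That number was on average 0.922 times as high in 5-FU, which accounts arithmetically for the larger TPM difference. For the other members it was between 0.966 (Srebf2) and 1.001 (Stard4) times as high. The parts of length and shared scaling were not tested. Exons of Scap overlap those of 5830462I19Rik on the opposite strand in GENCODE M21, for which no value was used here.

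Stard4, which encodes a soluble carrier that moves sterols between membranes and is a known SREBP2 target, did not pass the test. It had 57.5, 58.7 and 49.0 CPM in PBS and 47.0, 50.9 and 47.8 CPM in 5-FU. PBS replicates 1 and 2 lay above all 5-FU libraries, while PBS replicate 3 lay among them. The log2 fold change was -0.18 (SE 0.070, interval -0.34 to -0.027, edgeR adjusted p = 0.140). Without PBS replicate 3 it was -0.26 and was called (edgeR adjusted p = 0.0347), so that 1 library decides this call.

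Mylip, the ubiquitin ligase for lipoprotein receptors, was the lowest of the 7 genes and the most variable. It had 298, 347 and 212 estimated counts in PBS replicates 1, 2 and 3 and 303, 282 and 283 in 5-FU replicates 1, 2 and 3, or 14.2, 15.6 and 10.3 against 13.1, 14.3 and 13.2 CPM. The 5-FU libraries lay inside the PBS range. PBS replicate 3 was the lowest of the 6 libraries, as it was for Srebf2, and the PBS SD was 20.5% of the mean where counting alone gives 5.92%. The log2 fold change was 0.0096 (SE 0.13, edgeR adjusted p = 0.976), and its interval from -0.28 to 0.30 is the widest of the 7, so that a fold between 0.824 and 1.23 is compatible with the counts. Without PBS replicate 3 the value was -0.14, and without PBS replicate 2 it was 0.14, neither of them called.

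**Figure D2:**
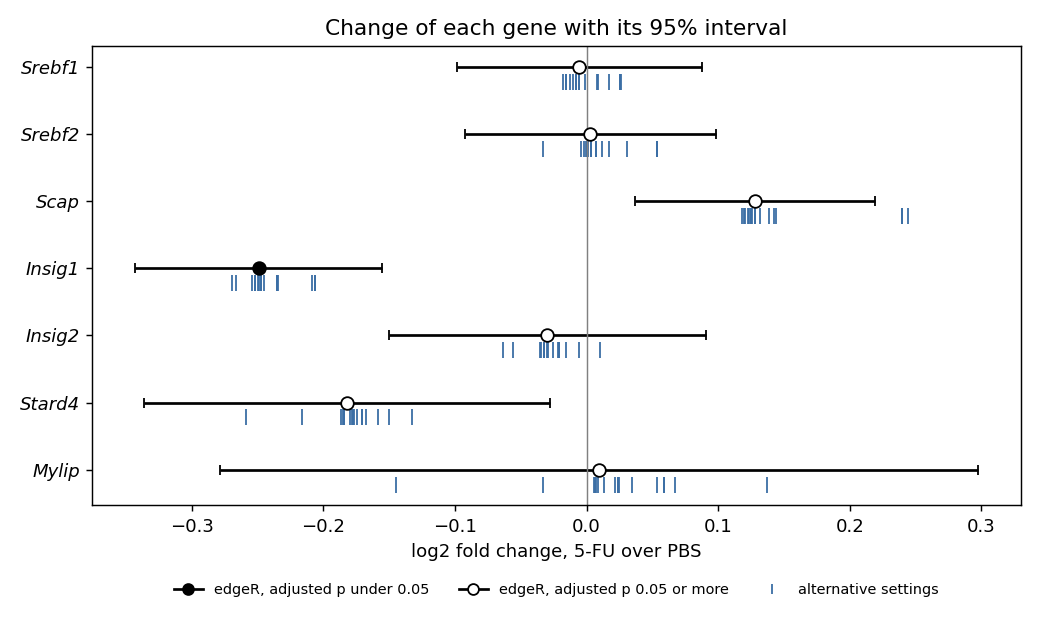
Log2 fold change of each gene, 5-FU over PBS (horizontal axis), with the 95% interval of the edgeR fit; the filled circle marks an adjusted p under 0.05, open circles the rest, and blue ticks the values under the alternative settings. The interval and all ticks of Insig1 lie under 0, those of Scap lie above 0 with the TPM ticks at 0.24, and the interval of Mylip reaches from -0.28 to 0.30.

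Compared per transcript length, Srebf2 was by far the most abundant of the 7 messages, with 231 ± 15.8 TPM in PBS and 240 ± 7.7 TPM in 5-FU (SD, n = 3), above 94.5% of the genes tested. It was followed in PBS by Insig1 (76.7 ± 3.1 TPM), Insig2 (75.2 ± 6.0 TPM), Srebf1 (66.5 ± 2.7 TPM), Scap (46.1 ± 2.6 TPM), Stard4 (23.8 ± 2.5 TPM) and Mylip (8.64 ± 1.9 TPM). Insig1 and Insig2 overlapped in both groups. Insig1 lay above Srebf1 in every PBS library, while in 5-FU, at 66.3 ± 1.3 and 67.7 ± 1.6 TPM, their libraries overlapped. The other neighbours in this order (Srebf1 and Scap, Scap and Stard4, Stard4 and Mylip) did not overlap in either group. Srebf2 stood 3.07-fold above Insig2 in PBS and 3.23-fold above it in 5-FU.

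**Figure D3:**
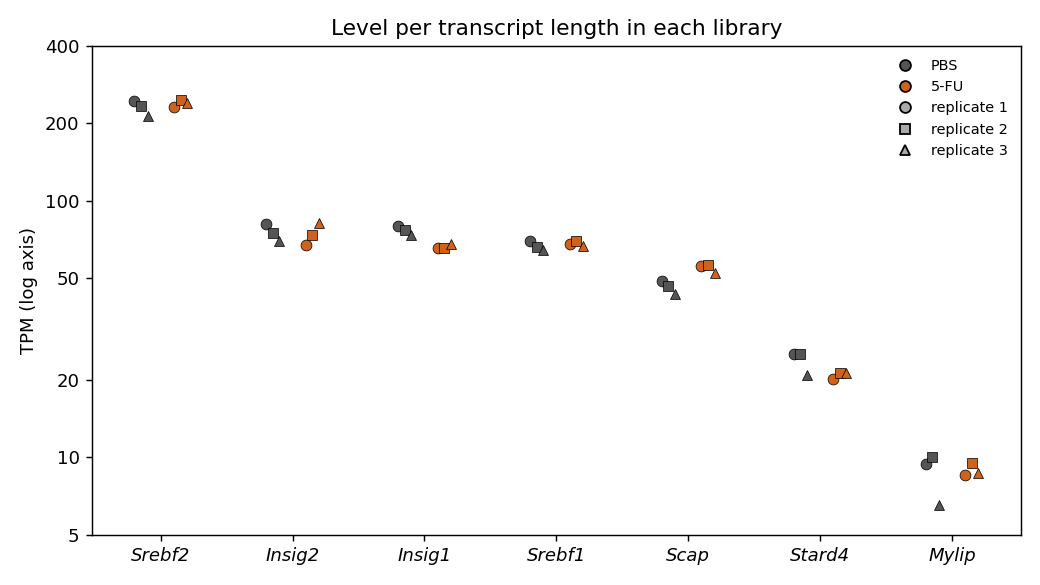
Level per transcript length (TPM, log axis) of the 7 genes in each library, ordered by mean; grey points are PBS and orange points 5-FU libraries. Srebf2 lies between 214 and 247 TPM, Insig2, Insig1 and Srebf1 lie together between 64.1 and 81.9 TPM, and Mylip lies between 6.50 and 10.01 TPM.

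Because SCAP, INSIG and SREBP proteins act as a complex, the relative levels of their messages were compared within each library, where library scaling cancels. Insig1 and Insig2 together amounted to 3.33, 3.26 and 3.31 times Scap (TPM) in PBS replicates 1, 2 and 3 and to 2.39, 2.48 and 2.88 times Scap in 5-FU replicates 1, 2 and 3. All 5-FU ratios lay under all PBS ratios. This ratio draws on the differences of Insig1 and Scap given above and is not separate from them. The 5-FU ratio was 0.781 times the PBS ratio (log2 difference -0.36; exact two-sided permutation test p = 0.1, adjusted p = 0.133 over the 4 ratios tested). With 3 against 3 libraries 0.1 is the smallest p this test can give, so no ratio could pass 0.05. On CPM, which leaves the transcript length out, the 5-FU ratio was 0.816 times that in PBS (log2 difference -0.29), with 1.75 to 1.81 in PBS and 1.45 to 1.47 in 5-FU.

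Srebf1 and Srebf2 together amounted to 6.43 to 6.50 times Scap in PBS and 5.38 to 5.89 times Scap in 5-FU (TPM), without overlap. The edgeR log2 fold changes were -0.0055 for Srebf1, 0.0028 for Srebf2 and 0.13 for Scap, so this ratio largely restates the difference of Scap. The log2 difference was -0.20 in TPM and -0.13 in CPM (exact permutation p = 0.1 each; adjusted p = 0.133 in TPM), a difference of 1.5 times or more between the scales. The ratio of Insig1 to Insig2 was 0.979, 1.03 and 1.06 in PBS and 0.978, 0.891 and 0.827 in 5-FU (TPM). The groups were separated only by the small gap between PBS replicate 1 and 5-FU replicate 1 (log2 difference -0.19; exact permutation p = 0.1, adjusted p = 0.133); on CPM the ratios lay further apart, at 1.72 to 1.83 in PBS and 1.47 to 1.63 in 5-FU. The ratio of Srebf1 to Srebf2 overlapped between the groups, at 0.281 to 0.300 in PBS and 0.276 to 0.292 in 5-FU (exact permutation p = 0.5, adjusted p = 0.5).

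**Figure D4:**
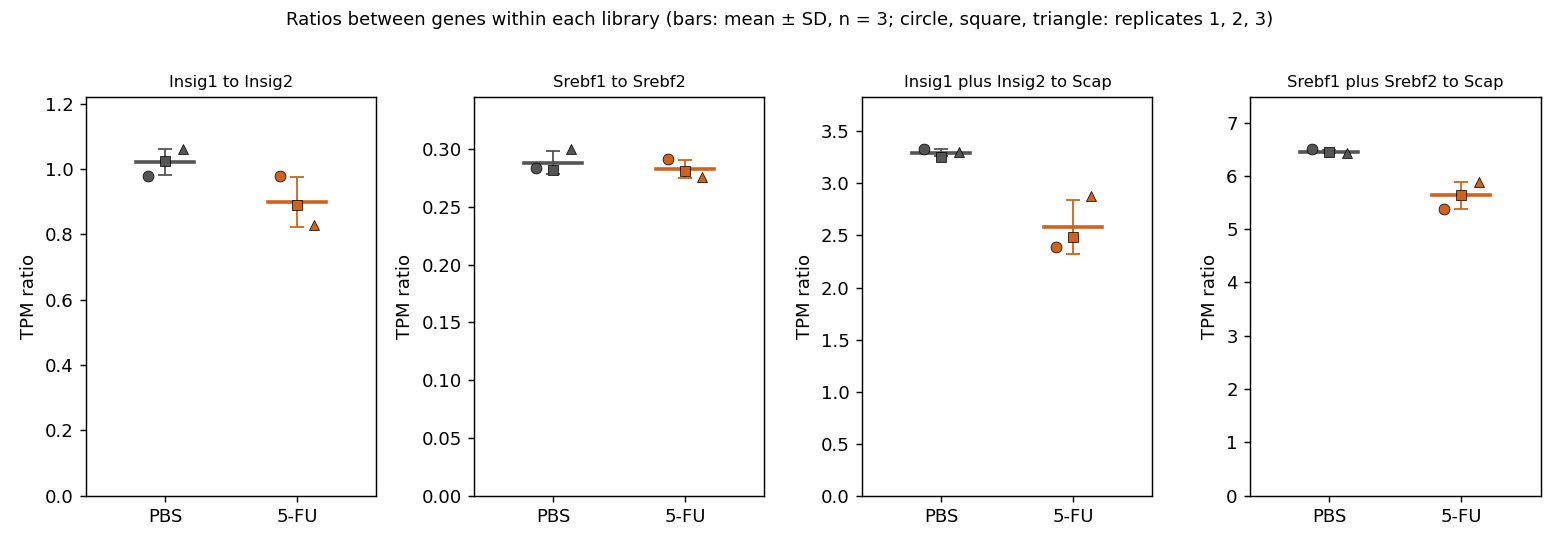
TPM ratios within each library (vertical axes from 0) for the 4 gene pairs or sums; points are libraries, lines group means and error bars the SD (n = 3). The ratio of Insig1 plus Insig2 to Scap lies between 3.26 and 3.33 in PBS and between 2.39 and 2.88 in 5-FU, while that of Srebf1 to Srebf2 overlaps between the groups.

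Other genes of the pathway were taken from 8 lists of 148 genes, of which 140 were tested; 6 rose and 12 fell, with a median log2 fold change of -0.018. The counts below stand beside the 7.14% of all genes tested that were called (3.87% higher, 3.26% lower); in the lists other than sterol synthesis they are 0 to 2 calls each, and nothing is read from them about a list. The enzymes of sterol synthesis, the textbook targets of SREBP2, held most of these calls: 10 of 20 fell, none rose, and 19 had negative values, with a list median of -0.20 against 0.0012 over all genes. Insig1, at -0.25, lay inside the range of these enzymes, -0.40 to 0.028, as did every other member except Scap. That range therefore does not set Insig1 apart from the members that were not called. The largest falls were those of Idi1, Tm7sf2, Fdps and Acat2 (log2 fold change -0.40 to -0.34). Tm7sf2 lost its call in each of the 6 refits without 1 library. Refits that dropped PBS replicate 1, 2 or 3 retained 6, 5 and 9 of the 10 calls, and those that dropped a 5-FU replicate retained 7 each. Fatty acid synthesis genes, the textbook targets of SREBP1, gave 0 calls among 14 by edgeR, and the list median was -0.074. An unadjusted edgeR p under 0.05 was found in 6 of them, beside 2893 of all 12135 genes tested. Nothing is read from that count. Acss2, which makes acetyl-CoA from acetate, had the lowest p (-0.29, edgeR adjusted p = 0.0684). Leaving out 5-FU replicate 3 gave 1 call in that list, as did the fit with the replicate number as a block.

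In the machinery that carries and cleaves SREBPs, 1 of 15 genes fell and none rose, beside 3.26% lower and 3.87% higher over all genes tested. That gene was Sar1a, a GTPase of the vesicles that leave the endoplasmic reticulum, which went from 333 ± 5.6 to 299 ± 5.6 CPM (SD, n = 3; edgeR adjusted p = 0.0373). The genes of ubiquitin ligation and extraction at the endoplasmic reticulum gave 0 calls among 17 by edgeR. An unadjusted edgeR p under 0.05 was found in 2 of them, beside 2893 of all 12135 genes tested. The conjugating enzyme Ube2j2 had the lowest p (-0.15, edgeR adjusted p = 0.0952). Of 19 nuclear cofactors, kinases and turnover genes 2 rose and none fell: Nfya, a subunit of the NF-Y factor (0.23, edgeR adjusted p = 0.0486), and Lpin1, a phosphatidate phosphatase that limits nuclear SREBP (0.35, edgeR adjusted p = 0.0382). The calls of Sar1a, Nfya and Lpin1 were lost in each of the 6 refits without 1 library.

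The counts in the next lists also stand beside 3.87% higher and 3.26% lower over all genes tested, and nothing is read from them. Among liver X receptors, their partners and targets, 2 of 13 rose and none fell. They were Rxra, the partner receptor (0.16, edgeR adjusted p = 0.0450), and Pltp, a phospholipid transfer protein (0.17, edgeR adjusted p = 0.0388). Without a library at a time, Pltp kept its call once, without PBS replicate 3, and Rxra in no refit. In the list of MYLIP partners and the LDL endocytic route 1 of 23 rose and 1 fell. Lrp8, which encodes a lipoprotein receptor that MYLIP also degrades, fell from 24.0 ± 1.8 to 18.0 ± 2.3 CPM (log2 fold change -0.42, SE 0.095, edgeR adjusted p = 0.0260) and kept its call in 1 of 6 refits, that without 5-FU replicate 3. Npc1, whose product exports cholesterol from lysosomes, rose (0.40, edgeR adjusted p = 0.00114) and kept its call in all 6. Of 19 tested sterol carriers and esterification genes Osbpl7, an oxysterol-binding relative, rose from 5.29 ± 0.17 to 7.06 ± 0.42 CPM (edgeR adjusted p = 0.0498), and the call was lost in each of the 6 refits; none fell.

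**Figure D5:**
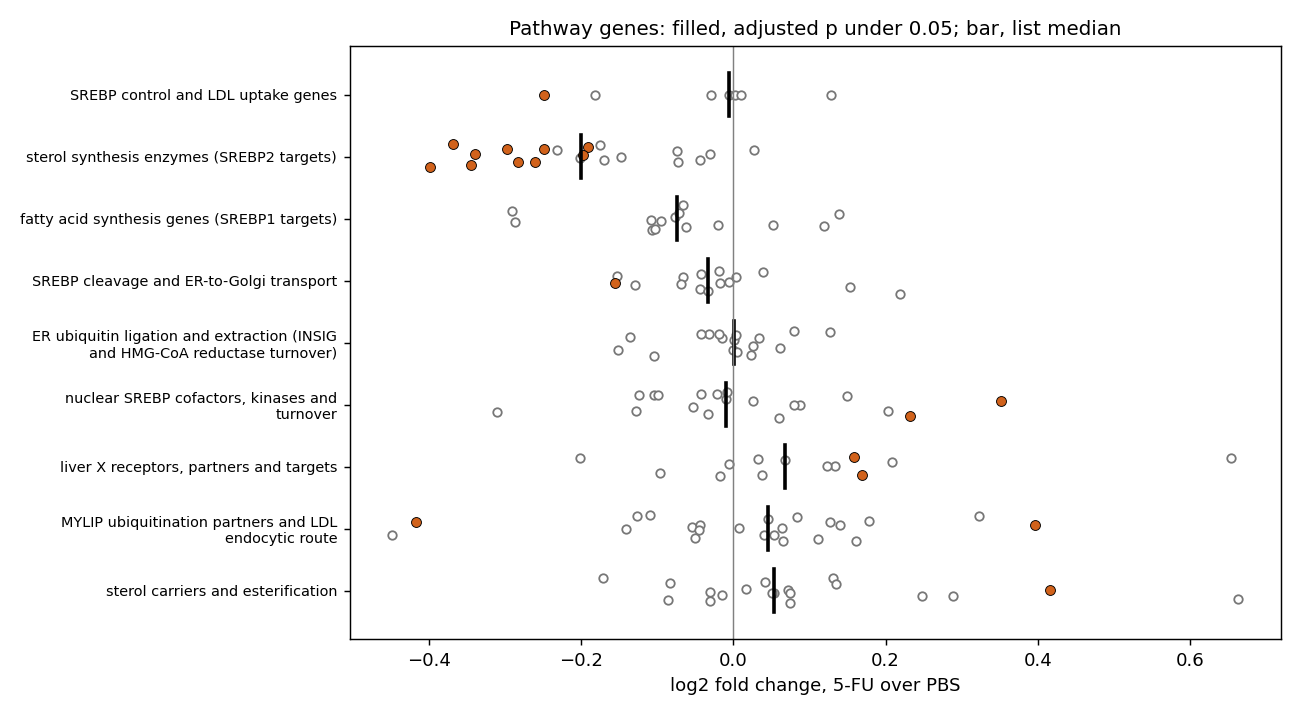
Log2 fold change, 5-FU over PBS (horizontal axis), of the 7 genes in the top line and of the tested genes of 8 pathway lists; filled points have an adjusted p under 0.05 (edgeR) and black bars mark medians. The sterol synthesis enzymes have the lowest median, -0.20, with 10 filled points, all under 0, while the 7 genes have a median of -0.0055 and 1 filled point, Insig1.

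The genes whose profile over the 6 libraries was most like that of Insig1 were sought among 11304 genes with a mean of at least 1 CPM. Genes of the lists were included. Likeness was measured by the root mean square difference of log2 CPM centred on each gene's mean. The nearest were Wdr1, an actin-filament disassembly factor, at 0.013, Atad3a, a mitochondrial membrane ATPase, at 0.020, and Oxct1, an enzyme of ketone body use, at 0.021; the median over all genes compared was 0.16. All 3 were lower in 5-FU, with log2 fold changes of -0.23, -0.27 and -0.26, which follows from their choice by likeness to Insig1. With so few libraries this likeness is a description of these profiles.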

How the data were processed

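Messenger RNA of 6 C2C12 libraries was analysed, 3 given PBS and 3 given 5-FU; groups and replicate numbers come from the titles. Per the labels' protocols, Trizol RNA was enriched for mRNA and prepared with a NEBNext Ultra kit, with no strand-marking step described. The submitters' processing notes name StringTie 1.3.1, for a step not specified. The aligner, the counter and the genome build were not given in the sources used here. Per the file headers, the authors deposited an estimated count and a TPM value per gene and library. TPM adds up to 1000000 in each library. Over all 21899 genes, zeros included, 7.31% to 8.04% of estimated counts are not whole (tolerance 0.005), none of them among the 7 genes. Of the genes named from the lists, Tm7sf2, Acat2, Acss2, Ube2j2, Pltp and Npc1 had counts that were not all whole. The authors' deposited table of 186 genes gives a log2 ratio of mean TPM, a p-value and an FDR, with a largest FDR of 0.353 and no stated test.

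Counts were rounded and tested with edgeR 4.0.16 (R 4.3.3): filterByExpr (10 counts in the smallest group's number of libraries, 15 in total) kept 12135 genes, TMM factors lay between 0.995 and 1.01, and a two-sided quasi-likelihood F test used Benjamini-Hochberg adjustment over all genes. CPM was scaled with the TMM factors. The SE is the log2 fold change over the square root of F. Intervals come from the same fit and include the spread between libraries. Ratios were tested by exact permutation (scipy 1.17.1). Named genes were the 7 members, the called genes of each list (at most 4, ranked by absolute change) or else its gene of lowest p, and the 3 nearest profiles to a called member. Members, lists and rules were chosen with earlier results of these data known. Alternatives were DESeq2 1.42.0, limma-voom and limma on log2 TPM (limma 3.58.1), other scalings, filters and thresholds, a replicate block and leaving out each library. The shortened sterol element, the CPM per TPM and exon overlaps were added after seeing the data. The fit was tested on simulated data.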

Additional observations from a re-analysis of the deposited data

How the results depend on the processing

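Results from tests on counts kept their direction for Insig1, Scap and Stard4 in all alternatives run, of which the stricter threshold could not change it. At an adjusted p under 0.01 there were 239 calls (112 higher, 127 lower), and 7 among the other pathway genes in place of 18. Limma on log2(TPM + 1), on log2(TPM + 0.1) and on log2(TPM + 1) without a filter gave 528, 513 and 156 calls, of which 186, 179 and 68 were lower and, in the last, 88 higher. The same settings gave 9, 9 and 5 calls among the other pathway genes. Members called numbered 2 with log2(TPM + 1), where Scap was called at 0.24, and 0 without the filter, where Insig1 stood at -0.21. More genes of low level entered that fit and its adjustment, and their part in the lost call was not tested. Leaving out 1 library gave 259 to 664 calls (128 to 388 higher, 131 to 276 lower), 1 to 2 among the members and 6 to 12 among the other pathway genes; the cause was not tested. Those refits put Insig1 between -0.27 and -0.23 (adjusted p at most 0.0451), Scap between 0.12 and 0.14, Stard4 between -0.26 and -0.13, Srebf1 between -0.018 and 0.017, Srebf2 between -0.033 and 0.031, Insig2 between -0.063 and 0.010, Mylip between -0.14 and 0.14 and the log2 ratio of Srebf1 to Srebf2 between -0.050 and 0.00077. Signs also turned for Srebf1 with library size alone (0.0089) and in the 3 TPM fits (0.026 in each). For Srebf2 they turned with upper-quartile factors (-0.0021) and without the filter (-8.54e-05). The median over the genes tested moved too. It was 0.016 with library size alone, -0.0037 with upper-quartile factors and -0.0076 without the filter. In the TPM fits it was 0.037 with log2(TPM + 1), 0.039 with log2(TPM + 0.1) and 0.022 without a filter. The replicate number as a block gave 1199 calls, 1 of them a member (Insig1, adjusted p = 0.00742). Deviations of same-numbered libraries correlated at -0.0016, 0.087 and 0.13 across genes. Libraries numbered 2 and 3 correlated best with their own number, and those numbered 1 did not. PBS replicate 2 with 5-FU replicate 3 gave -0.13, and PBS replicate 3 with 5-FU replicate 2 gave -0.093. No label says that the numbers pair cultures, so the numbers were not taken as pairs. At 212 to 347 counts a library, Mylip had the least depth of the 7 genes.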

Other observations

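The CPM behind 1 TPM follows the transcript length assigned to a gene, times a scaling shared by the whole library. For Insig2 it was uneven within the 5-FU group. It was 0.894, 0.790 and 0.679 in 5-FU replicates 1, 2 and 3, against 0.767, 0.783 and 0.812 in the PBS replicates. The highest was 1.32 times the lowest, where it was 1.19 times for Scap and at most 1.08 times for the other 5 genes. On the TPM scale the same 5-FU libraries stood at 67.0, 73.7 and 81.9 TPM, an order opposite to that of their CPM (60.0, 58.2 and 55.7). Levels of Insig2 in TPM therefore rest on the assigned length more than those of the other 6 genes.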
